A study of Mus musculus with 29 samples.

Results

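IRF8 binding was compared between microglia of adult mice and peritoneal macrophages, using 6 of the 29 samples of a mouse series, 25 of which have a peak list here. The members were chosen by sample title: 3 libraries of adult microglia and 3 of peritoneal macrophages, with replicates 1 and 2 in batch 1 and replicate 3 in batch 2 in each group. All 6 came from female mice of the strain labelled IRF8-EGFP and were made by CUT&RUN, in which an antibody (here against GFP) directs a nuclease to a chromatin protein so that the DNA around it is released and sequenced. The brains were taken at 3 months and the cells were crosslinked and sorted by flow cytometry. The age of the mice that gave macrophages was not given separately, and the source label of the macrophage libraries names sorted microglia, so the titles were followed. Lists from other cells of the series were used only as annotation: IRF8 in IRF8-EGFP microglia of postnatal days 9 (P9, 4 libraries) and 14 (P14, 3 libraries), and PU.1, H3K27ac and H3K4me1 in adult wild-type (WT) microglia, with 2 libraries for each target. Whether numbered libraries came from different mice is not stated, so p-values below measure the spread between these libraries, which may be technical.

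IRF8 is a transcription factor of the interferon regulatory factor family that is made in myeloid and B cells. It binds DNA poorly alone. With the ETS factor PU.1 it occupies composite sites in which an ETS core is followed by a GAAA site, and with other interferon regulatory factors it occupies the paired GAAA sites of interferon response elements. It can also bind beside AP-1 factors of the BATF family. Microglia are the resident macrophages of the brain parenchyma, whose identity depends on TGF-beta signalling and the factor SALL1, whereas the large resident macrophages of the peritoneal cavity depend on retinoic acid and the factor GATA6.

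The sequences below show the DNA at the centre of 8 regions, as examples of the motifs and genes described below: 1 region bound in both cell types, 3 listed in microglia only and 4 listed in macrophages only. Each is the 201 bp window around the region centre on the plus strand of mm10 (GRCm38.p6), written 5′ to 3′, with every match to the searched motifs in capitals. The 8 motifs were searched on both strands. The ETS-IRF composite site was GGAA followed after 2 bases by the site GAAA. The interferon response-like site was a pair of GAAA sites with 2 bases between them. The ETS core was GGAAGT, and the AP-1 site was TGANTCA. The sites of the other factor families are spelled out beside their values. A composite site can contain an ETS core, and neighbouring matches can overlap. A match is a description of letters and was not tested as a binding site. The examples were chosen for holding a match, and many regions hold none: of the 10 strongest regions of each class described below, 3 shared, 6 microglia only and 4 macrophage only windows did.
Vrk2 (shared, chr11:26586589-26586789): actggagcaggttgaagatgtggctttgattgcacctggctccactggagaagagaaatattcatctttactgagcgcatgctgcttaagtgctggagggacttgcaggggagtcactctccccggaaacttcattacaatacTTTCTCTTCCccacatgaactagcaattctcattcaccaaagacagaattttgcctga
H2-DMb2 (microglia only, chr17:34143099-34143299): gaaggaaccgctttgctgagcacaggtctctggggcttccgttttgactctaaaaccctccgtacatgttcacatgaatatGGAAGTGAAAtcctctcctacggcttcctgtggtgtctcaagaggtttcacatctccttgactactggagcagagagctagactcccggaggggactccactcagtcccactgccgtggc
Tgfbr2 (microglia only, chr9:116121596-116121796): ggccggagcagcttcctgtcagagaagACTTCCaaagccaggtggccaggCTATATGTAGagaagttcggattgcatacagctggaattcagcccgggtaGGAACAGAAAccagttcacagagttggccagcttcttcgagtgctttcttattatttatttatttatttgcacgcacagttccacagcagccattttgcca
Cx3cr1 (microglia only, chr9:120034422-120034622): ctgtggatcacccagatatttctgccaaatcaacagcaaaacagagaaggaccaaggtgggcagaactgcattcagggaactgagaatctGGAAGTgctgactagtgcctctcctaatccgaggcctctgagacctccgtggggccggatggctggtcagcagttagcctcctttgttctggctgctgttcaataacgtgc
Rarb (macrophage only, chr14:16824015-16824215): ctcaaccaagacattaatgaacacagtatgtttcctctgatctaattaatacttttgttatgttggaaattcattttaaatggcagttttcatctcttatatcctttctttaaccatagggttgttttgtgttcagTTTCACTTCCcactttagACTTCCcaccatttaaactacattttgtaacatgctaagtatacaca
Ccdc186 (macrophage only, chr19:56811345-56811545): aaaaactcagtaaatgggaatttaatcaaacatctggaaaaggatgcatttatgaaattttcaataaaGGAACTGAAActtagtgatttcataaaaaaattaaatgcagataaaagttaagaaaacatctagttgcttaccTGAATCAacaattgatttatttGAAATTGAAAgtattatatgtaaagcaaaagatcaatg
Cd38 (macrophage only, chr5:43882101-43882301): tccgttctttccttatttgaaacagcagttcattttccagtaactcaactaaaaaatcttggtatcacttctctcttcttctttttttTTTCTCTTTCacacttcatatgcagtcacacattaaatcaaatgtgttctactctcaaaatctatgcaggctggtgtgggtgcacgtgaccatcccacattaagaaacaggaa
Ltbp1 (macrophage only, chr17:75199743-75199943): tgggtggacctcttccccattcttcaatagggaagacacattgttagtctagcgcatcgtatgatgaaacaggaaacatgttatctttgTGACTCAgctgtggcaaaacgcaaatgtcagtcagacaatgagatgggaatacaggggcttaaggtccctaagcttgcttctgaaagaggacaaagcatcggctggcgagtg
The Vrk2 region was among the 10 strongest found in all 6 libraries and holds a composite match on the minus strand, as does the Rarb region. In the H2-DMb2 and Tgfbr2 windows the composite match lies on the plus strand, just before the centre and at the centre. The Tgfbr2 window also holds an ETS core and a MEF2 match, and the Rarb window an ETS core inside the composite match and another beside it. The Cx3cr1 window holds an ETS core without a composite match. The Ccdc186 window holds a composite, an interferon response-like and an AP-1 match together, the Cd38 window an interferon response-like match and the Ltbp1 window an AP-1 match.

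The authors' lists name a region once per summit, so each region was counted once. Microglia libraries 1, 2 and 3 held 17048, 29667 and 22421 IRF8 regions from 7510600, 24705885 and 7250496 fragments. Macrophage libraries 1, 2 and 3 held 23163, 16994 and 9788 regions from 19408860, 21529744 and 15795402 fragments. The groups overlapped, with means of 23045 ± 6333 regions in microglia and 16648 ± 6694 in macrophages (SD, n = 3 each). On the log2 scale the microglia libraries were 0.52 higher (p = 0.4 in a two-sided exact permutation test, which cannot give less than 0.1 for 3 against 3 libraries). The difference was 0.18 in batch 1 and 1.20 in batch 2, and 1.28 once regions were divided by fragments (exact permutation p = 0.1). Both batch 2 libraries had narrow regions, with median widths of 298 and 290 bp against 544 to 696 bp in batch 1. The microglia lists were called against another IgG control than the macrophage lists, so cell type and control cannot be told apart. Peak calls from pools of sorted cells also cannot tell binding in fewer cells from weaker binding per cell.

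A consensus region was a merged region that 2 or more of the 3 libraries of its group listed. Microglia had 16935 consensus regions and macrophages 12063. Of the microglial regions, 6694 (39.5%) overlapped a macrophage consensus region and are called shared, 6761 (39.9%) had no peak in any macrophage library and are called microglia only, and the other 3480 met a peak without consensus. Of the macrophage regions, 6787 (56.3%) were shared, 3677 (30.5%) had no peak in any microglia library and are called macrophage only, and 1599 were in between. Single libraries overlapped across cell types about as often as within them in several pairs. Of the regions of macrophage library 1, 49.14% met microglia library 2 and 49.05% met macrophage library 2, and of those of macrophage library 3, 31.6% and 30.4% did. Of the regions of microglia library 1, 90.2% met microglia library 2, 51.5% microglia library 3 and 50.4% macrophage library 1. The 4 libraries of batch 1 alone gave 5909 shared microglial, 5642 microglia only and 3519 macrophage only regions. At the strictest setting, 2580 microglia only regions had a peak in all 3 microglia libraries and 510 macrophage only regions in all 3 macrophage libraries.

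**Figure D1:**
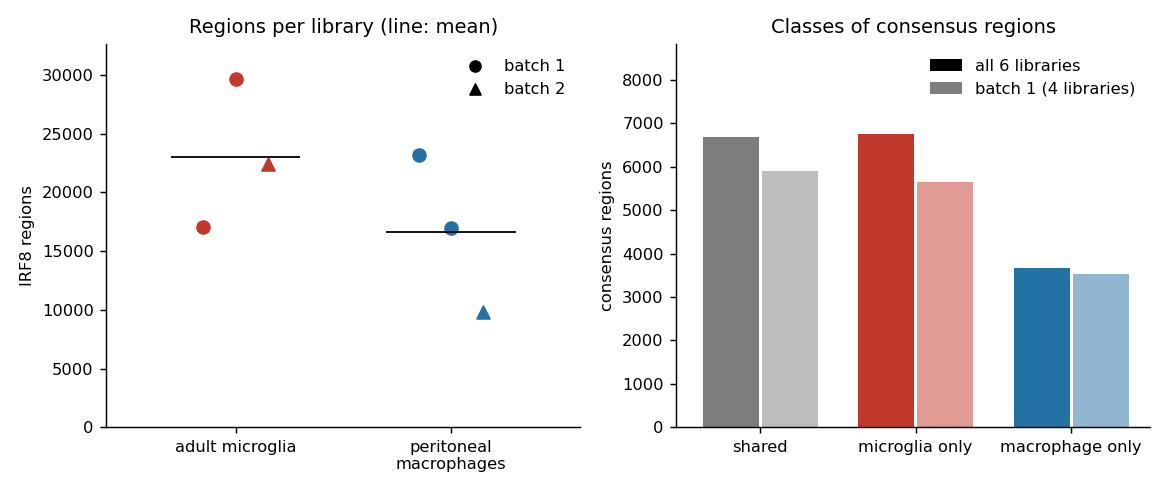
The left plot gives the number of IRF8 regions (vertical axis) in each library of adult microglia and peritoneal macrophages, with circles for batch 1, triangles for batch 2 and a line at the mean; the groups overlap. The right plot gives the number of consensus regions in each class, with dark bars for all 6 libraries and pale bars for the 4 libraries of batch 1; macrophage only is the smallest class in both.

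The size of the macrophage only class rested on 2 libraries. Leaving out macrophage library 1 left 602 macrophage only regions, and leaving out library 2 left 671. Without microglia library 2, which had the most fragments of the 6, macrophage only regions numbered 4999, microglia only regions 2758 and shared regions 4361. Without microglia library 1 these numbers were 3867 and 3762 for the 2 specific classes, so either library turned the order of the classes. Shared regions numbered 2060 without macrophage library 1 and 2222 without library 2. With every list cut to its 9788 strongest regions, the length of the shortest list, 3497 microglia only and 2727 macrophage only regions remained, and 3213 were shared.

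The batch 2 libraries took no part in the classes made from batch 1 and serve as a separate look at them. Of 5642 microglia only regions of batch 1, 2683 (47.6%) overlapped a region of the batch 2 microglia library and 187 (3.31%) one of the batch 2 macrophage library. Of 3519 macrophage only regions of batch 1, 527 (15.0%) overlapped a region of the batch 2 macrophage library and 110 (3.13%) one of the batch 2 microglia library. Shared microglial regions met both: 70.5% were found in the microglia library and 32.0% in the macrophage library. In the separate batch both specific classes were listed more often in their own cell type, in lists of unequal length (22421 and 9788 regions). This is a count over regions of 1 library for each cell type, with no test over samples.

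The classes lay at different distances from genes. Of the 3 named classes, shared regions lay nearest to promoters, with 38.6% within 1 kb of a transcription start (GENCODE vM21) and a median distance of 2761.5 bp. Of microglia only regions 23.3% were within 1 kb, with a median of 5602 bp, and of macrophage only regions 15.4%, with a median of 9071 bp. The 3480 microglial regions that met a macrophage peak without consensus were nearer still, with 43.4% within 1 kb and a median of 2047 bp. Centres of macrophage only regions were 42.8% intronic outside the start windows and 38.2% intergenic, against 45.1% and 26.8% of microglia only regions. The mean GC content was 49.97%, 48.6% and 45.04% in shared, microglia only and macrophage only regions. These are properties of the classes. By library, the share within 1 kb of a start was 33.8%, 29.5% and 22.1% in microglia and 26.7%, 29.2% and 23.6% in macrophages, with overlapping groups and a difference of 1.92 percentage points (exact permutation test, two-sided, p = 0.7). The lowest shares were those of the 2 narrow batch 2 lists, and within batch 1 the difference was 3.67 points. Without microglia library 1 it turned to −0.753 points.

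Chromatin marks of WT microglia and IRF8 lists of younger microglia were then laid over the classes. PU.1, the partner of IRF8 at composite sites, had 5359 regions listed in both WT libraries. These met 41.0% of shared, 16.0% of microglia only and 0.734% (27 of 3677) of macrophage only regions. H3K27ac, which marks active promoters and enhancers, met 87.1%, 75.4% and 25.2% of the 3 classes. H3K4me1, which marks enhancers both active and primed, met 93.3%, 89.7% and 53.0%. Macrophage only sites therefore rarely met PU.1 of microglia, while 1950 of 3677 lay in chromatin that carries H3K4me1 there. No such marks of peritoneal macrophages were analysed here. All WT lists but the second of PU.1 name the same IgG control as the adult microglia IRF8 lists, and its part in the overlap was not tested.

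Younger microglia gave the same order of classes. The P14 consensus of 8136 IRF8 regions met 61.7% of shared, 27.4% of microglia only and 0.626% (23) of macrophage only regions. The much shorter P9 consensus of 1374 regions met 16.0%, 2.01% and 0.0816% (3 regions). The P9 and P14 lists come from other libraries and controls than the adult lists. Among the 2580 microglia only regions found in all 3 adult libraries, 46.8% met a P14 and 25.3% a PU.1 region. Among the 510 macrophage only regions found in all 3 macrophage libraries, these shares were both 0.980%.

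**Figure D2:**
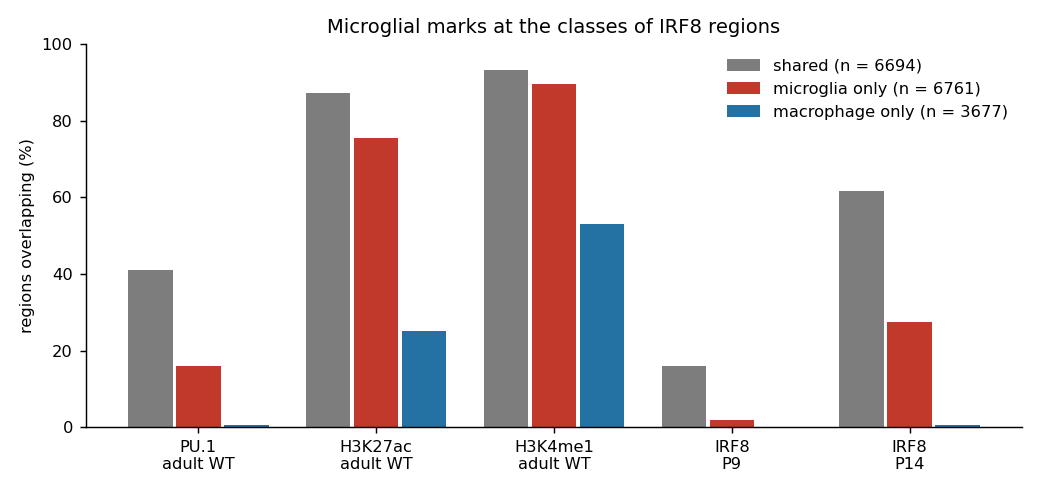
Bars give the percentage of shared, microglia only and macrophage only IRF8 regions that overlap a consensus region of PU.1, H3K27ac or H3K4me1 in adult wild-type microglia, or of IRF8 in P9 or P14 microglia, by at least 1 bp. Every mark falls from shared to microglia only to macrophage only regions, from 41.0% to 0.734% for PU.1 and from 93.3% to 53.0% for H3K4me1.

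Whole libraries differed less than the classes. Regions with PU.1 made up 26.4%, 16.6% and 16.5% of the microglia libraries and 14.6%, 17.8% and 11.6% of the macrophage libraries, a difference of 5.19 points. Regions with H3K27ac made up 81.5%, 70.3% and 48.0% against 52.5%, 58.1% and 33.7%, a difference of 18.5 points. Regions with H3K4me1 made up 91.0%, 85.2% and 58.4% against 69.0%, 74.1% and 43.9%, a difference of 15.9 points. Microglia libraries were higher on average for each mark, but the groups overlapped, and each exact permutation test gave p = 0.3 (two-sided, Benjamini-Hochberg adjusted 0.3 over the 3 marks). Within batch 1 the differences were 5.30, 20.7 and 16.6 points and within batch 2 they were 4.96, 14.3 and 14.5 points. With lists of equal length they were 15.2, 26.4 and 21.7 points, and the groups no longer overlapped for any of the 3 marks (exact permutation p = 0.1 each). Without microglia library 1 the PU.1 difference was 1.91 points.

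The classes had nearly the same share of regions with a composite site and differed most in interferon response-like and AP-1 sites. The composite match was found within 100 bp of the centre in 6.59% of shared, 6.54% of microglia only and 6.53% of macrophage only regions, against 2.23%, 1.89% and 2.41% in windows 1 kb away and 1.84% of 32851 RefSeq promoters searched over the same length. ETS cores were also close, at 25.7%, 27.5% and 24.2% (11.7 to 12.8% at 1 kb, 16.8% of promoters). Interferon response-like matches were found in 4.84%, 3.48% and 7.81% (2.92 to 3.35% at 1 kb, 2.29% of promoters). AP-1 matches were found in 7.16%, 6.09% and 10.1% (5.74 to 5.95% at 1 kb, 5.49% of promoters). Macrophage only regions thus had the most interferon response-like and AP-1 matches, while composite matches stood at nearly the same level in the 3 classes. GATA matches (AGATAAG), the motif class of the peritoneal factor GATA6, were found in 2.52%, 2.29% and 3.45% (2.71 to 2.86% at 1 kb, 2.11% of promoters). C/EBP matches (TTGC and CAA with 2 bases between) were found in 1.37%, 1.61% and 1.79% (1.63 to 1.79% at 1 kb, 1.37% of promoters), MEF2 matches (CTA and TAG with 4 bases between) in 2.94%, 3.49% and 3.37% (3.04 to 3.70% at 1 kb, 2.51% of promoters) and RUNX matches (TGTGGTT) in 4.59%, 5.38% and 5.03% (4.95 to 5.32% at 1 kb, 3.50% of promoters), all near their level 1 kb away. Classes from batch 1 alone gave 4.96%, 3.37% and 8.01% for the interferon response-like site and 7.29%, 6.19% and 10.2% for AP-1.

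Over libraries the same motifs were tested with the library as the unit. AP-1 matches were found in 6.67%, 6.28% and 6.53% of microglia regions and in 7.87%, 8.01% and 6.78% of macrophage regions. The groups did not overlap, with a difference of −1.06 points for microglia minus macrophages (two-sided exact permutation p = 0.1, which no 3 against 3 test can undercut, Benjamini-Hochberg adjusted 0.4 over 8 motifs), and batch 1 gave −1.46 and batch 2 −0.259. GATA matches were found in 2.28%, 2.43% and 2.33% against 2.91%, 2.67% and 2.69%, again without overlap (difference −0.408 points, exact permutation p = 0.1, adjusted 0.4). Windows 1 kb away held GATA matches in 2.57%, 2.62% and 2.82% of microglia regions and 2.88%, 2.75% and 2.61% of macrophage regions, so macrophage centres stood near that level and microglia centres below it. These 2 of 8 motifs separated the groups, but no test here can reach 0.05, and with lists of equal length the AP-1 groups overlapped (−0.964 points, exact permutation p = 0.4). Composite matches were found in 7.31%, 5.70% and 4.39% against 5.28%, 5.74% and 3.99% (difference 0.797 points, exact permutation p = 0.5, adjusted 0.667). Interferon response-like matches were found in 4.29%, 3.95% and 3.42% against 5.27%, 5.08% and 3.00%, so that batch 2 went the other way, with −1.06 points in batch 1 and 0.413 in batch 2 (exact permutation p = 0.5, adjusted 0.667). The remaining motifs overlapped between groups, with exact permutation p from 0.4 to 1. Among them, ETS cores were found in 28.4%, 25.6% and 20.2% against 22.4%, 23.7% and 17.5%.

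**Figure D3:**
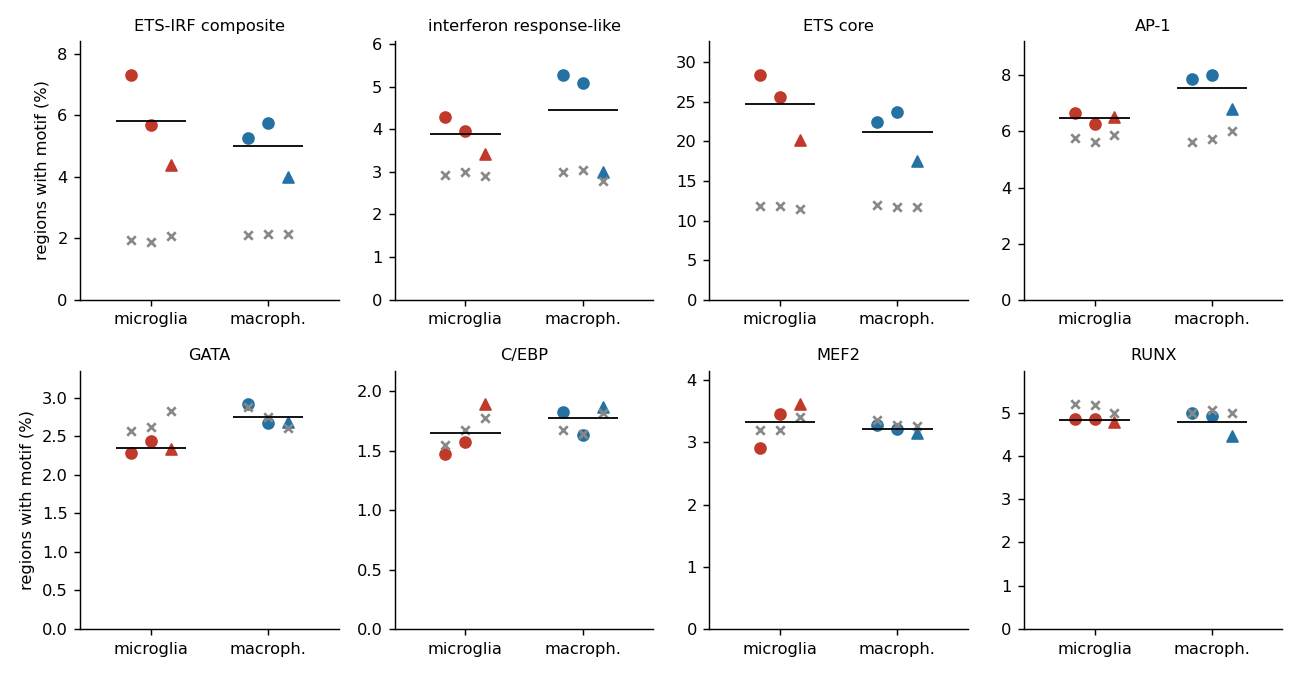
Each panel gives, for 1 motif, the percentage of IRF8 regions of each library with a match within 100 bp of the centre (coloured circles for batch 1, triangles for batch 2, line at the group mean of 3 libraries) and in windows 1 kb away (grey crosses). The composite and ETS matches lie well above the crosses in both groups, and AP-1 and GATA matches are higher in all 3 macrophage libraries than in any microglia library.

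The strongest shared regions, ranked by the mean percentile of the authors' −log10 p in each list, lay at Plscr1, Mbnl1, Tefm, Sulf2, Tyk2, Wdfy4, Prelid1, Pdlim2, Rbm47 and Vrk2. Plscr1 and Tyk2, a scramblase induced by interferon and a kinase of the interferon receptor, belong to interferon signalling. The Plscr1 region (chr9:92269533-92270730, intron) had an enrichment over control of 25.3, 21.4 and 19.1 in microglia and 23.7, 30.8 and 14.6 in macrophages. The Tyk2 region (chr9:21125016-21126457, intron) had 55.2, 47.0 and 21.6 in microglia against 19.7, 13.6 and 10.3 in macrophages. The level was alike at Plscr1 and higher in every microglia library at Tyk2, although enrichments come from separately scaled lists with 2 controls. All 10 regions were also listed at P9 and P14 and met PU.1, and 9 of 10 met H3K27ac.

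The strongest microglia only regions lay at Rab3ip, Elmo1, Npnt, Rtn1, Arvcf, Mycbp2, Arhgap18, St18, Usp6nl and Cldn1. The Rab3ip region (chr10:116923701-116925308, intron) had an enrichment of 24.7, 22.6 and 19.6, and the Elmo1 region (chr13:20458415-20459395, intron) 29.6, 23.7 and 18.8. ELMO1 is an adaptor for the engulfment of apoptotic cells, and RAB3IP activates a small GTPase of vesicle traffic. All 10 regions met H3K4me1 and a P14 IRF8 region, 9 met H3K27ac, 6 met PU.1 and 5 were listed at P9.

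The strongest macrophage only regions lay nearest to Col19a1, B3gnt2, Zbtb7c, Hhip, Ccdc186, Myo3a, Celf2, Exoc2, Myof and Nars2. The B3gnt2 region (chr11:22818116-22819294, intron) had an enrichment of 27.7, 13.8 and 11.8, and the Ccdc186 region printed above 13.5, 15.0 and 9.85. Only 2 of the 10 met H3K27ac of microglia, 2 met H3K4me1, 2 met a P14 IRF8 region and none was listed at P9. The Col19a1 region (chr1:24611596-24616137, intergenic) and the Myo3a region (chr2:22587316-22590150, intron) stood apart: their enrichment was only 1.71 to 2.37 in the 3 macrophage libraries, against 6.70 to 27.7 at the other 8, although their −log10 p ranked among the highest. The Col19a1 region also met a microglial PU.1 and a P14 IRF8 region. Regions were not filtered here against any list of artefact-prone parts of the genome.

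Regions were assigned to every gene whose body with 10 kb on each side they touched. Of 21924 protein-coding genes, 24.4% had a shared region, 21.4% a microglia only region and 9.80% a macrophage only region. Peaks in every microglia and no macrophage library were found at 2.60% of genes, and peaks in every macrophage and no microglia library at 0.721% (5.29% and 3.02% in batch 1, with 2 libraries a group). Both a microglia only and a macrophage only region were found at 576 genes, the former alone at 4117 and the latter alone at 1572. These shares move with the processing, and counts of a list under another setting stand against the shares of that setting. Without microglia library 1, 13.4% of all genes had a microglia only and 10.6% a macrophage only region, and without library 2 the shares were 9.99% and 14.3%. Without macrophage library 1 they were 27.8% and 2.12%, and without library 2 they were 24.4% and 2.41%. With lists of equal length they were 12.5% and 8.74%, and with regions of −log10 p of at least 10 they were 16.6% and 4.57%.

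**Figure D4:**
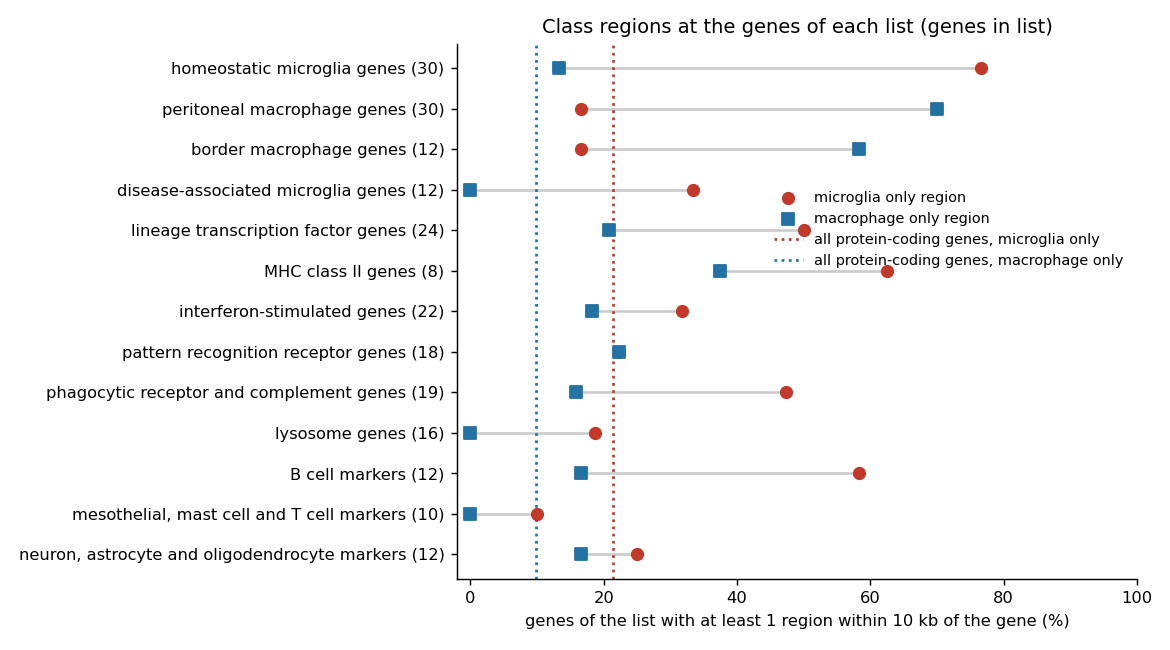
Each row is a gene list, with the number of its genes in brackets. Red circles give the percentage of its genes with a microglia only region and blue squares with a macrophage only region within 10 kb of the gene, and dotted lines give the same for all protein-coding genes (21.4% and 9.80%). Homeostatic microglia genes lie at 76.7% and 13.3%, and peritoneal macrophage genes at 16.7% and 70.0%.

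Homeostatic microglia genes, which mark resting microglia, mostly carried regions of the microglial class. A microglia only region was found at 23 of 30 genes (76.7%, against 21.4% of all genes), a macrophage only region at 4 (13.3%, against 9.80%) and a shared region at 20 (66.7%, against 24.4%). At 20 genes there was a microglia only and no macrophage only region, and at 1 the reverse. The median gene of the list spanned 19477.5 bp, close to 17410 bp over all protein-coding genes. Within batch 1 the counts were 23 and 3, against 18.5% and 9.26% of all genes. Without microglia library 2 they were 15 and 7, against 9.99% and 14.3% of all genes. Macrophage only regions were found at 0 genes without macrophage library 1 and at 1 without library 2.

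Siglech, a sialic acid-binding lectin of microglia, was the 1 of 30 homeostatic genes with peaks in every microglia and no macrophage library (2.60% of all genes). It held 5, 5 and 6 regions in microglia. Its strongest region (chr7:55783606-55785466, intergenic) lay 16358 bp from the gene start, past the gene and nearest to the start of Tubgcp5, with an enrichment of 17.8, 11.7 and 9.45, and met PU.1, both histone marks and the P9 and P14 lists. A second region (chr7:55766953-55769763) covered the start itself, with 6.75, 13.9 and 9.97.

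Cx3cr1, the receptor for the neuronal chemokine fractalkine, held 11, 14 and 6 regions in microglia and 5, 3 and 2 in macrophages. The groups did not overlap in this number, though the share of all genes with such a separation was not counted. Of the consensus regions, 7 were microglia only, 2 shared and none macrophage only. The 7 lay between 514 and 40525 bp from the gene start, all in introns of a gene model that spans 168264 bp. The region printed above (chr9:120034116-120034929) had an enrichment of 15.4, 12.4 and 4.50.

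Tgfbr2, the type II receptor for TGF-beta, held 12, 18 and 13 regions in microglia against 7, 7 and 3, of which 7 were microglia only and all of these carried H3K27ac and H3K4me1. Tgfbr1, the type I receptor, held 5, 10 and 0 against 1, 0 and 0, with 4 microglia only regions and nothing in microglia library 3. Smad3, a signal transducer of both receptors, differed from them, with 3, 10 and 2 against 9, 2 and 5 regions, 3 shared and 1 macrophage only. The 2 receptor genes thus carried microglia only regions and Smad3 did not.

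Sall1, the transcription factor that sets microglial identity, held 2, 8 and 1 regions in microglia and 0, 0 and 1 in macrophages, with 3 microglia only regions between 527 and 6590 bp from the start, each in 2 of 3 libraries. Csf1r, the receptor that keeps microglia alive, held 5, 11 and 6 against 2, 2 and 1, with 4 microglia only regions. Crybb1, a crystallin gene used as a microglial marker, held 7, 7 and 5 against 3, 3 and 0, with 4. Tmem119, a microglial surface marker, held 2, 5 and 1 against 0, 1 and 0, with 1. P2ry12, the receptor for nucleotides released by injured cells, held 10, 15 and 8 against 7, 5 and 2, with 4 shared and 2 microglia only regions. Region numbers did not overlap between the groups at P2ry12, Csf1r and Crybb1, and touched at Sall1 and Tmem119. Csf1r and Crybb1 were named for their class regions, and how many of all genes separate in this way was not counted. Trem2, C1qa, Ctss and Selplg, which other macrophages express as well, carried only shared regions of the 3 classes (1, 4, 4 and 4).

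**Figure D5:**
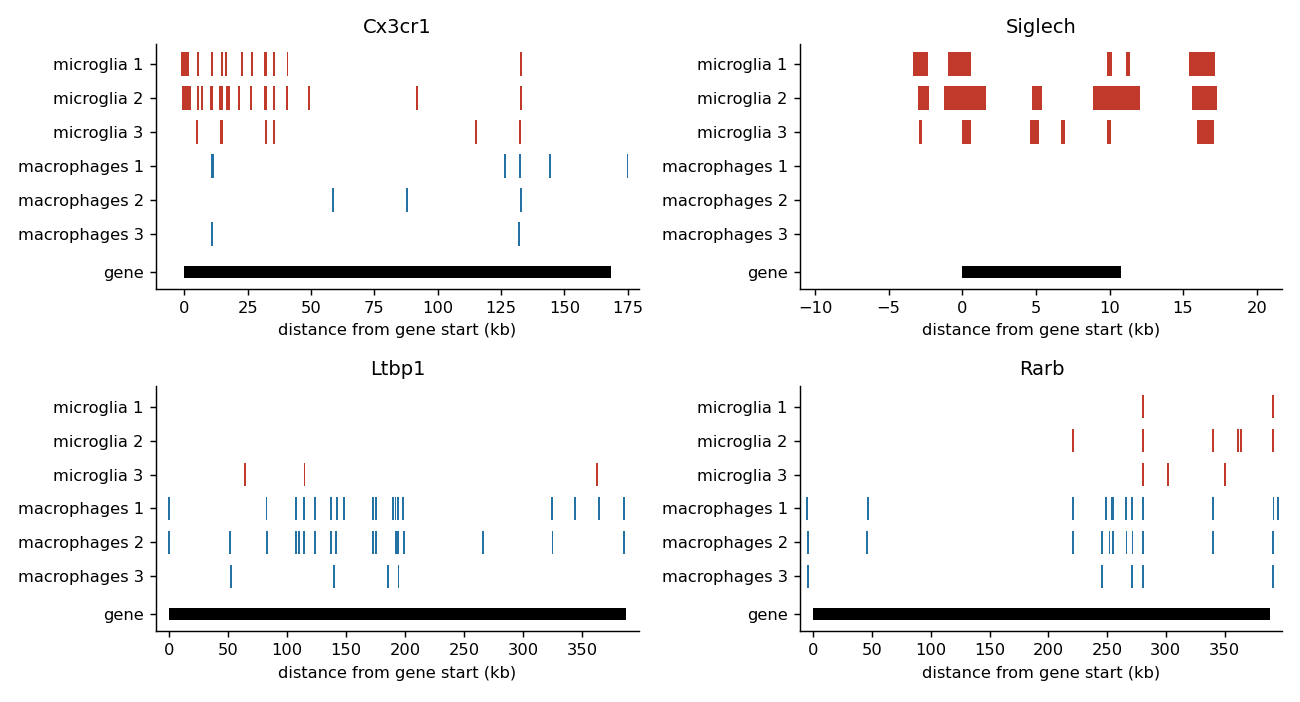
Each panel shows the IRF8 regions of the 6 libraries along 1 gene, by distance from the gene start in kb in the direction of transcription, with microglia in red, macrophages in blue and the gene body in black; very narrow regions are widened to be visible. Siglech has regions in the microglia libraries alone, Cx3cr1 has most microglial regions near its start, and Ltbp1 and Rarb have regions mostly in macrophages.

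Peritoneal macrophage genes showed the opposite balance. A macrophage only region was found at 21 of 30 genes (70.0%, against 9.80% of all genes), a microglia only region at 5 (16.7%, against 21.4%) and a shared region at 13 (43.3%, against 24.4%). At 18 genes there was a macrophage only and no microglia only region, and at 2 the reverse. The median gene of this list spanned 33552.5 bp, longer than the 17410 bp of all genes. Within batch 1 the counts were 20 and 5. Without macrophage library 1 they were 10 and 8 and without library 2 they were 11 and 7, against 2.12% and 2.41% of all genes with a macrophage only region. Microglia only regions were found at 3 genes without microglia library 1 or 2.

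Icam2, Selp, F10 and Aspa were the 4 of 30 listed genes with peaks in every macrophage and no microglia library (0.721% of all genes). Icam2, an adhesion molecule used to sort large peritoneal macrophages, held 2, 4 and 1 regions. Its strongest (chr11:106386817-106388473, intron) lay 430 bp from the start with an enrichment of 10.0, 9.23 and 7.30. F10, coagulation factor X, held 2, 4 and 2, the most widely listed of them inside the neighbouring gene F7. Selp, the adhesion molecule P-selectin, held 3, 2 and 1 and Aspa, an aspartoacylase, held 3, 3 and 2. All 4 lacked regions in the 3 microglia lists.

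Ltbp1, which stores latent TGF-beta in the matrix, held the most macrophage only regions of the protein-coding genes ranked. The ranking left out symbols that start with Gm and a digit or end in Rik. Ltbp1 is long, with 386945 bp against a median of 17410 bp. Regions numbered 18, 17 and 4 in macrophages and 0, 0 and 3 in microglia, and 12 were macrophage only, of which 1 (printed above) was in all 3 macrophage libraries with an enrichment of 4.75, 5.27 and 5.56. None of the 12 met H3K27ac of microglia and 2 met H3K4me1.

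Rarb, the retinoic acid receptor beta, held 12, 11 and 5 regions in macrophages against 2, 6 and 3 in microglia, with 6 macrophage only, 2 shared and none microglia only. Its strongest region (chr14:16823827-16824404, printed above) lay at −4959 bp from the start (upstream) with an enrichment of 16.0, 7.64 and 7.09. Rxra, the partner of such receptors, held 8, 7 and 1 against 3, 8 and 5, with 2 macrophage only and 1 shared. Gata6, the factor of peritoneal identity, held 4, 4 and 1 against 1, 1 and 2, with 1 shared and 1 macrophage only region. None of these 3 genes had a microglia only region, and the groups overlapped in region number at each.

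Other members of this list were weaker or differed. Naip1, a sensor of bacterial needle proteins, held 6, 7 and 0 regions in macrophages and 1 in each microglia library, with 5 macrophage only regions, none in batch 2. Serpinb2, a protease inhibitor, held 8, 6 and 0 against none, with 4 macrophage only regions. Cebpb, a factor of macrophage activation, held 2 shared regions and no region of either other class. Cd9, a tetraspanin, went against its list, with 4, 9 and 5 regions in microglia, 4, 2 and 3 in macrophages and 4 microglia only regions, 3 of them in every microglia library.

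Border macrophage genes mark macrophages of the meninges and vessels, which can accompany microglia, and several are also made by peritoneal macrophages. A macrophage only region was found at 7 of 12 genes (58.3%, against 9.80% of all genes) and a microglia only region at 2 (16.7%, against 21.4%). The median gene of this list spanned 36726 bp, longer than the 17410 bp of all genes, and in the gene body alone 4 genes had a macrophage only region, against 6.72% of all genes. Cd163, a scavenger receptor for haemoglobin, held 2, 1 and 1 regions in macrophages and none in microglia, and its macrophage only region (chr6:124296604-124298080) had an enrichment of 18.6, 16.2 and 5.51. Cd38, an ectoenzyme that consumes NAD, held 5, 2 and 1 against none. Cd36, a receptor for lipids, held 11, 9 and 4 against 2, 2 and 3, with 6 macrophage only regions. Mrc1 and Lyve1, which define these cells, carried only shared regions of the 3 classes (4 and 2). The count of 7 was 4 without macrophage library 1, 3 without library 2 and 4 with regions of −log10 p of at least 10 (2.12%, 2.41% and 4.57% of all genes).

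Disease-associated microglia genes, which rise in microglia near plaques, were counted next. A microglia only region was found at 4 of 12 (33.3%, against 21.4% of all genes), a macrophage only region at 0 (against 9.80%) and a shared region at 2 (16.7%, against 24.4%). With lists of equal length, or with regions of −log10 p of at least 10, 1 gene had a microglia only region. Itgax, which encodes CD11c, held 2, 2 and 3 regions in microglia and none in macrophages. Its strongest region (chr7:128127687-128130954) lay at −227 bp from the start with an enrichment of 16.1, 15.7 and 8.84, and the other lay 3723 bp into the gene. Ccl3, a chemokine, held 1, 4 and 1 against none. Clec7a, a receptor for fungal glucan, held 2, 2 and 0 against 2, 1 and 1, with 1 shared and 1 microglia only region. Apoe, the lipid carrier, had no region in microglia and 2 in macrophage library 1 only, and Igf1 had none in any library. The count of 4 was 2 without microglia library 1 and 1 without library 2, which also gave 1 gene with a macrophage only region.

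Transcription factor genes of the myeloid lineage were mostly bound in both cells. A shared region was found at 19 of 24 genes (79.2%, against 24.4% of all genes), a microglia only region at 12 (against 21.4%) and a macrophage only region at 5 (20.8%, against 9.80%). The counts of the specific classes were 5 and 3 with lists of equal length and 9 and 1 with regions of −log10 p of at least 10. Irf8 itself held 3, 3 and 3 regions in microglia and 2, 0 and 1 in macrophages, with 3 microglia only regions between 3513 and 9170 bp from the start. None of the 3 met microglial PU.1 or H3K27ac, and all met H3K4me1. Spi1, which encodes PU.1, held 3, 6 and 6 against 2, 5 and 1, with 2 shared and 1 microglia only. Irf2, a family member that competes at interferon sites, held 10, 14 and 8 against 19, 15 and 7, with 7 shared and 6 macrophage only regions. Mef2a, a factor with a role in microglia, held 6, 10 and 5 against 7, 7 and 0, with 3 microglia only. Fos, a subunit of AP-1, held 2, 2 and 2 against 4, 3 and 4, with 2 macrophage only, and was higher in every macrophage library. Of the genes named here only Fos separated the groups towards macrophages and only Irf8 towards microglia. Irf2, Irf8, Mef2a and Fos met the naming rule by their class regions. The separation was not counted over the other genes of the list or over all genes. Microglia only regions were found at 7 genes of the list without microglia library 1 and at 6 without library 2, where macrophage only regions were found at 9, and macrophage only regions at 2 without macrophage library 1 or 2.

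MHC class II genes, which present antigen to T cells, had microglia only regions at 5 of 8 (62.5%, against 21.4% of all genes) and macrophage only regions at 3 of 8 (37.5%, against 9.80%). Since 3 of the 5 genes, H2-DMa, H2-DMb1 and H2-DMb2, share 1 region, the 5 genes rest on 3 regions. The macrophage only region of H2-Aa is also that of H2-Eb1, so the 3 genes there rest on 2 regions. H2-DMb1, a chaperone of peptide loading, was the 1 gene of 8 with peaks in every microglia (1, 3 and 1) and no macrophage library (2.60% of all genes). The region counted there (chr17:34142474-34143925) is the one printed for H2-DMb2, since it lies −108 bp from that neighbour's start, and it is also counted at H2-DMa. Its enrichment was 11.9, 13.7 and 9.97. H2-Aa, a chain of the presenting molecule, held 0, 1 and 0 regions in microglia against 2, 2 and 0 in macrophages, with 1 macrophage only region. H2-Ab1, the other chain, held 2, 4 and 1 against 2, 2 and 0, with 1 shared and 1 microglia only. Macrophage only regions were found at 0 genes of the list without macrophage library 1 and at 1 without library 2.

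Interferon-stimulated genes were largely bound in both, with a shared region at 15 of 22 (68.2%, against 24.4% of all genes), a microglia only region at 7 (31.8%, against 21.4%) and a macrophage only region at 4 (18.2%, against 9.80%). With lists of equal length the order of the specific classes turned to 3 and 5, and with regions of −log10 p of at least 10 the counts were 4 and 3. Rsad2, the antiviral enzyme viperin, held 3, 3 and 0 regions in macrophages and none in microglia, with 2 macrophage only regions. Ifi204, a sensor of DNA, held 5, 4 and 1 against 2, 3 and 1, with 2 shared and 1 macrophage only. Ifi35 held 2, 3 and 2 regions in microglia against 3, 1 and 0, with 2 microglia only, and Bst2, the tethering factor of virus particles, held 2, 3 and 1 against 1, 2 and 0, with 1. Over all libraries the region numbers of these 4 genes overlapped or touched between the groups. Microglia only regions were found at 4 genes without microglia library 1, at 2 without library 2 and at 11 without macrophage library 1, settings that moved the share of all genes to 13.4%, 9.99% and 27.8%. Macrophage only regions were found at 7 genes without microglia library 2 (14.3% of all genes) and at 1 without macrophage library 1 or 2 (2.12% and 2.41%).

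Pattern recognition receptor genes had a microglia only region at 4 of 18 (22.2%, near the 21.4% of all genes), a macrophage only region at 4 (22.2%, against 9.80%) and a shared region at 13 (72.2%, against 24.4%). With lists of equal length, and with regions of −log10 p of at least 10, the counts of the specific classes were 7 and 3. Nlrp3, the inflammasome sensor, held 4, 6 and 3 regions in microglia against 2, 2 and 0, with 2 microglia only. Tlr7, a receptor for RNA, held 4, 5 and 5 against 7, 4 and 0, with 2 macrophage only. Casp1, the protease of the inflammasome, held 1, 2 and 1 against 3, 3 and 1, with 1 macrophage only. Cd14, the co-receptor for lipopolysaccharide, held 3, 4 and 4 against 2, 2 and 1, with 1 microglia only region. Nlrp3 and Cd14 had more regions in every microglia library than in any macrophage library. Both were named for their class regions, which come from the same lists. The share of all genes that separate the groups was not counted. Without macrophage library 1, 7 genes had a microglia only and 2 a macrophage only region, and without library 2 none had a macrophage only region.

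Phagocytic receptor and complement genes had a shared region at 16 of 19 (84.2%, against 24.4% of all genes), a microglia only region at 9 (47.4%, against 21.4%) and a macrophage only region at 3 (15.8%, against 9.80%). Fcgr3, a receptor for IgG, held 6, 5 and 4 regions in microglia against 2, 3 and 0, with 2 microglia only. Itgam, which encodes CD11b, held 3, 8 and 2 against 6, 5 and 1, also with 2, of which 1 is the region given above as the strongest of its neighbour Itgax. C3ar1, the receptor for a fragment of C3, held 1, 3 and 1 against 3, 2 and 0, with 1 macrophage only. Fcgr3 alone of these 3 separated the groups. All 3 were named for their class regions, and the share of all genes that separate was not counted. Microglia only regions were found at 4 genes without microglia library 1 (13.4% of all genes) and at 2 without library 2 (9.99%), where macrophage only regions were found at 5 (14.3%). Without macrophage library 1 or 2, macrophage only regions were found at 1 and 0 genes (2.12% and 2.41% of all genes). With regions of −log10 p of at least 10 the counts of the specific classes were 6 and 2.

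Lysosome genes were the most shared list, with a shared region at 15 of 16 (93.8%, against 24.4% of all genes), a microglia only region at 3 (18.8%, against 21.4%) and a macrophage only region at 0 (against 9.80%). The counts of the specific classes were 2 and 4 with lists of equal length. Lgmn, an asparagine-specific protease, held 5, 11 and 5 regions in microglia against 6, 4 and 1, with 3 shared and 3 microglia only. Tfeb, the regulator of lysosome genes, held 4, 6 and 2 against 4, 2 and 2, with 1. Without microglia library 1 the list had 1 gene with a microglia only region, and without macrophage library 1 or 2 it had 5. Without microglia library 2 it had 4 genes with a macrophage only region.

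Markers of other cells that the sorts could hold were counted the same way. IRF8 is also made in B cells, and B cell markers had a microglia only region at 7 of 12 (58.3%, against 21.4% of all genes) and a macrophage only region at 2 of 12 (16.7%, against 9.80%). Equal list length gave counts of 2 and 1, and with regions of −log10 p of at least 10 they were 2 and 0. Cd22, a B cell lectin, held 1, 1 and 1 regions in microglia and none in macrophages, and Bank1, a B cell adaptor, held 1, 1 and 4 against 8, 4 and 1. Pax5 and Fcmr had no region of any class. Of 10 mesothelial, mast cell and T cell markers, 6 had no peak in any library (Msln, Cpa3, Kit, Ms4a2, Cd3e and Tcf7). Microglia only regions lay at 1 (10%, against 21.4% of all genes) and macrophage only regions at 0 (against 9.80%). The 1 was Lck, a T cell kinase, with 2, 3 and 1 regions against none. Of 12 neuron, astrocyte and oligodendrocyte markers, 4 had no peak in any library (Snap25, Gad1, Aqp4 and Olig2). Microglia only regions lay at 3 (25%, near the 21.4% of all genes) and macrophage only regions at 2 (16.7%, against 9.80%). The share of all genes without a peak in any library was not counted, so the numbers without a peak have no baseline. Slc1a3, a glutamate transporter of astrocytes that microglia can also make, held 11, 15 and 8 regions in microglia against 1, 1 and 0, with 9 microglia only, the strongest at chr15:8634207-8637147 with an enrichment of 20.7, 15.2 and 12.9. The B cell count of 7 was 4 without microglia library 1 and 2 without library 2, and that of 2 was 1 without macrophage library 1 or 2. The neural count of 2 was 4 without microglia library 2 and 1 without macrophage library 1 or 2. The part of other cells in the classes was not tested.

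Outside the lists, genes were ranked in the same way, without Gm and Rik symbols. The most microglia only regions were found at Frmd4a with 14, Nav2 with 13, and Bach2, Epb41l2, Foxn3 and Zfhx3 with 11 each. Long genes lead such a ranking: these span 163722 to 1018987 bp. Epb41l2, a protein that links membrane and cytoskeleton, is the shortest of them and held 11, 19 and 9 regions in microglia against 1, 0 and 1, with none shared. After Ltbp1, the most macrophage only regions were found at Sgms1 with 10, Ryr2 with 9 and Arhgef3 with 7. They span 266988, 553844 and 289013 bp. Sgms1, an enzyme of sphingomyelin synthesis, held 23, 20 and 6 regions in macrophages against 7, 15 and 6. Ryr2, a calcium release channel, held 14, 11 and 3 against 1, 1 and 1, and Arhgef3, an exchange factor for small GTPases, held 18, 14 and 3 against 1, 6 and 1. Of these 3 genes, Ryr2 separated the groups in all libraries. All 3 were picked by their macrophage only regions, and the share of all genes that separate was not counted.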

How the data were processed

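The 6 IRF8 lists are MACS peak files on mm10. Per the file headers the authors ran MACS 2.2.7.1 on paired fragments against an IgG control at a q-value of 0.01, with a maximum gap of 640 bp and duplicates kept, and the histone lists came from MACS 2.2.6. The submitters' processing notes also name bcl2fastq, Trim Galore, Bowtie2 and deepTools. For each peak the authors deposited a pileup (coverage signal), −log10 p-value and q-value columns and a fold enrichment ratio over control. The second PU.1 library was called at a q-value of 0.05. Each library was called by itself.

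Each chromosome, start and end was counted once, and regions were merged and classed by overlap of at least 1 bp (Python 3.11.15, numpy 2.4.6, pandas 2.3.3) as tested on simulated data. Genes are from GENCODE vM21, sequences from GRCm38.p6 and promoter motif shares from RefSeq promoters of the same build. Groups were compared by two-sided exact permutation tests over 3 against 3 libraries, with Benjamini-Hochberg adjustment over 8 motifs or 3 marks. The fragments in each header give the depth, and no exact permutation test of this size can go below p = 0.1.

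Named regions were the 10 of highest mean −log10 p percentile in each class with a peak in every library, within 50 kb of a gene, 1 for each gene. Named list genes were those with peaks in every library of one group and none of the other, up to 4 more with the most regions of one class, and 10 genes named whatever their values. Others named (Tgfbr1, Smad3, Rxra, Serpinb2, Trem2, C1qa, Ctss, Selplg, Mrc1, Lyve1, Igf1, Pax5, Fcmr and the genes with the most regions) and the 8 printed sequences were chosen after their values were seen. Members and gene lists were chosen with earlier results of these data known. Alternatives were a −log10 p of at least 10, lists of equal length, batch 1 alone, other overlaps and windows, and leaving out each library. Signal tracks and the other lists were not used here. Values of a few genes that the rule names are not reported here.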

Additional observations from a re-analysis of the deposited data

How the results depend on the processing

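At no setting can an exact permutation test of so few libraries give less than p = 0.1, so none could reach 0.05. Among the recomputed group differences (judged by direction alone) and the class and all-gene counts (judged by a change of over 1.5 times), 195 stayed, 35 counts moved and 10 differences turned. The 195 include permutations within batch and over replicate blocks. These change only the p-value, so their differences could not turn. Among the counts of list genes, 190 stayed and 96 moved. Differences that kept their direction could change in size, as the composite motif did from 0.797 to 0.0423 without microglia library 1. Direction turned in the following, as microglia minus macrophages in percentage points. With only regions of −log10 p of at least 10, the composite motif gave −0.204, C/EBP 0.0349, MEF2 −0.184 and RUNX −0.280. Batch 1 alone gave −0.0634 for MEF2 and −0.109 for RUNX, and windows around the strongest summit −0.0121 for RUNX. Leaving out 1 library gave −0.0338 to 0.318 for MEF2, −0.131 to 0.144 for RUNX and −0.753 to 5.11 for the share near a start. The causes were not tested.

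Shared regions numbered 2638 at −log10 p of at least 10, 3213 with lists of equal length, 1499 with all 3 libraries required and 2060 to 6289 without 1 library. Microglia only regions numbered 3497 with equal length, 2580 with all 3 required and 2758 to 8926 without 1 library. Macrophage only regions numbered 1521, 510 and 602 to 4999 at −log10 p of at least 10, with all 3 required and without 1 library. Genes with a microglia only region numbered 2748 with equal length, 3120 in the gene body, 8680 with 50 kb on each side and 2190 to 6096 without 1 library. Genes with a macrophage only region numbered 1003 at −log10 p of at least 10, 4519 with 50 kb and 465 to 3129 without 1 library. Genes with peaks in every microglia and no macrophage library numbered 1160 in batch 1, 366 with 50 kb and 605 to 1226 without 1 library. Those with peaks in every macrophage and no microglia library numbered 53 at −log10 p of at least 10, 350 with equal length, 662 in batch 1 and 179 to 424 without 1 library. Fewer libraries required or excluded change these counts by construction. More homeostatic genes had a microglia only than a macrophage only region under all 11 alternatives, and the reverse held for peritoneal and border genes. Macrophage only genes were the more numerous under 2 alternatives each for interferon-stimulated, pattern recognition and lysosome genes, and under 1 each for lineage factor, phagocytic and neural genes. For disease-associated, MHC class II, B cell and mesothelial, mast and T cell genes they were never the more numerous, with ties under 1 or 2 alternatives. Among all protein-coding genes, microglia only calls were also the more numerous under every alternative but 1. The exception was without microglia library 2, with 9.99% against 14.3%. More microglia only than macrophage only genes therefore does not by itself set a list apart.

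Same-numbered libraries of the groups had correlations of their deviations of 0.109, 0.0413 and 0.112, so the numbers were not taken to pair them, although each library correlated best with its own number. With the replicate number as a block, differences are the same and sign-flip permutation p-values are 0.5 for the log2 difference of 0.52 in region number, 0.75 for the 1.92 points near a start, 0.25 for ETS core (3.49), AP-1 (−1.06), GATA (−0.408), H3K27ac (18.5) and H3K4me1 (15.9), and 0.5 for PU.1 (5.19). The value of 0.25 is the smallest that 3 pairs allow, and these 5 measures differed in the same direction in all 3 pairs.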
